A study of Mus musculus with 4 samples.

Results

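Keratins and desmosome genes were examined by RNA sequencing of 4 samples of primary culture from mouse inner ear, 2 of vestibular cells (from the balance organs) and 2 of cochlear cells (from the hearing organ), for which the labels name no treatment or genotype. The members were taken by symbol: the numbered keratin genes, the desmogleins and desmocollins, plakophilins 1 to 4, plakoglobin (Jup), the plakins Dsp, Ppl and Evpl, and vimentin (Vim). The rule found 66 of the 24346 genes in the files. Of these, 18 were above 1 FPKM (fragments scaled to transcript length and library size) in at least 1 library, and these 18 are described here. The other 48 stayed at or below that level, 28 of them listed at 0 in every library. The sources used here do not give strain, age, passage or the number of animals. Nothing in the labels says that the samples of a group came from separate cultures, so p-values measure only the spread between these samples. Where 4 values stand in a row below, they are in the order vestibular 1, vestibular 2, cochlear 1, cochlear 2.

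Keratins are the intermediate filament proteins of epithelial cells. They assemble as pairs of a type I (acidic) and a type II (basic to neutral) chain, and simple, single-layered epithelia typically use Krt8 with Krt18, often with Krt7 and Krt19. Desmosomes tie these filaments to the cell surface: desmogleins and desmocollins reach across to the neighbouring cell, plakoglobin and the plakophilins bind their tails, and desmoplakin links the plaque to the filaments. Vimentin forms the filaments of mesenchymal cells, and also of macrophages and of many cells in culture. In the inner ear, simple keratins are known from the epithelium that lines the endolymph spaces.

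Markers of other cell types differed between the libraries, and their part in the results below was not tested. An 8-gene epithelial list that includes Epcam and the claudin genes Cldn4 and Cldn6 summed to 427, 82.9, 713 and 970 FPKM. A macrophage list of 8 genes summed to 7752, 6002, 5961 and 22.5 FPKM, so cochlear 2 stood apart. A fibroblast list of 8 genes summed to 4038, 6713, 2327 and 1368 FPKM, and a cartilage list of 7 genes to 752, 4203, 192 and 191. The melanocyte list of 5 genes summed to 220 FPKM in vestibular 2 and to between 1.51 and 2.95 in the other 3 libraries. The mesothelium and meninges list of 5 genes summed to 495, 3407, 136 and 199.7 FPKM, in which Ptgds stood at 443, 3402, 94.2 and 139.9 and Msln at 51.7, 3.65, 40.6 and 58.5. The supporting cell list of 6 genes summed to 18.4, 11.2, 33.6 and 130.2 FPKM, in which Otoa stood at 9.40, 3.61, 29.0 and 129. Only Otoa had both cochlear values above both vestibular values (28.4% of all genes tested did). The other way lay 3 genes of the list (26.9% of all). Among these, Sox2 stood at 1.86, 1.30, 0.411 and 0.201 and Otog at 4.05, 3.61, 1.62 and 0.431. Of 7 hair cell genes 4 were above 1 FPKM in any library: Myo7a ran from 5.81 to 13.4 FPKM, while Atoh1, the factor that specifies hair cells, was listed at 0 in 3 libraries and at 0.1001 in vestibular 2. In bulk RNA, fewer cells of a type and less RNA per cell cannot be told apart.

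The simple-epithelium pair Krt8 and Krt18 held most of the keratin RNA and followed each other from library to library. Krt8, a type II chain, stood at 297, 10.5, 663 and 687 FPKM. Krt18, its type I partner, stood at 305, 11.6, 628 and 719 FPKM. The cochlear libraries were close together and highest, vestibular 1 stood below them, and vestibular 2 was 28.3-fold (Krt8) and 26.3-fold (Krt18) below vestibular 1. The ratio of Krt8 to Krt18 nevertheless stayed near 1, at 0.973, 0.904, 1.06 and 0.955. The pair made up 78.5%, 68.0%, 93.7% and 89.5% of the summed keratin FPKM. On the log2(FPKM + 1) scale the difference, vestibular minus cochlear, was -3.53 (SE 1.73) for Krt8 and -3.44 (SE 1.69) for Krt18. Neither passed limma's test with Benjamini-Hochberg adjustment over all genes (adjusted p 0.370 and 0.373). Without vestibular 2 the differences were -1.18 and -1.14, and without vestibular 1 they were -5.88 and -5.74.

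Krt7, a type II keratin of ducts and other simple epithelia, broke from this order. It stood at 145, 1.43, 63.2 and 122 FPKM, so the highest and the lowest value were both vestibular. The groups thus overlapped, and the 2 vestibular libraries were 101-fold apart, the widest gap among the 17 of these 18 genes that were above 0 in every library. Krt7 amounted to 0.487 of the Krt8 level in vestibular 1, against 0.137, 0.0953 and 0.178 in vestibular 2, cochlear 1 and cochlear 2. The difference between groups was -2.24 (SE 2.195) on the log2(FPKM + 1) scale, with a limma adjusted p of 0.607, and it turned to 0.71 without vestibular 2.

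The promoters of Krt8, Krt18 and Krt7 are shown because these genes carry most of the keratin RNA and were all lowest in vestibular 2, with that of Vim, which was not. Each is the 250 bases before the RefSeq start site on GRCm38 (the assembly that mm10 names), 5′ to 3′ on the gene's own strand. The annotation used for gene positions below begins these genes further upstream. By that annotation the Krt7 and Vim windows lie wholly inside the gene, and the Krt8 and Krt18 windows partly. Capitals mark any match to CACCTG (the E-box form bound by the repressors Zeb1 and Snai2), TGANTCA (AP-1), GGGCGG (Sp1) or TATAAA, the core box near many start sites, each searched on both strands. Overlapping matches were allowed. Krt8 (chr15:102004343-102004592, minus strand), Krt18 (chr15:102027966-102028215, plus strand), Krt7 (chr15:101412153-101412402, plus strand) and Vim (chr2:13574061-13574310, plus strand) read as follows.
Krt8: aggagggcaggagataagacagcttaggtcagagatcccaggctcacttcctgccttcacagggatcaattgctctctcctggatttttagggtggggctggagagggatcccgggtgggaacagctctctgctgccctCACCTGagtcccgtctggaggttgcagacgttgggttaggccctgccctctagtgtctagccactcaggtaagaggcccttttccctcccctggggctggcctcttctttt
Krt18: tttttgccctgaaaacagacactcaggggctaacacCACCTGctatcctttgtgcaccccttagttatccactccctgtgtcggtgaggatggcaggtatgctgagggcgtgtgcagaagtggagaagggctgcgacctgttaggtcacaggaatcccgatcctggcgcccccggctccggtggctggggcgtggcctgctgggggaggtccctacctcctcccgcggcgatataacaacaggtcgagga
Krt7: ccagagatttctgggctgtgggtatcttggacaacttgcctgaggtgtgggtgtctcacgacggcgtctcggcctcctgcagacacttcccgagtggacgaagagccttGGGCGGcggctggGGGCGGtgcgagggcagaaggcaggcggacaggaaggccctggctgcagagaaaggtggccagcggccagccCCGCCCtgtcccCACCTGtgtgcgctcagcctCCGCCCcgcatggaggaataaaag
Vim: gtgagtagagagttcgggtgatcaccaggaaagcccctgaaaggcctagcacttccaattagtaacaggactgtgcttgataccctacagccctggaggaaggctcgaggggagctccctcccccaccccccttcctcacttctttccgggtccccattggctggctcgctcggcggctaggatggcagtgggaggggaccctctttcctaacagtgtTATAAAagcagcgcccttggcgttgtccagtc
CACCTG had 1 match in each of the Krt8, Krt18 and Krt7 windows, and not in that of Vim. It starts 111 bases before the start site in Krt8, 214 in Krt18 and 44 in Krt7. Beyond these 4 genes, the motif was also found before Krt10 and in a Pkp4 window, genes not lowest in vestibular 2. It was absent from the windows of Dsp, which was lowest there, and of Jup, which was not. Over all 32851 promoters of the table, 17.2% held this motif. Krt7 held 4 matches to GGGCGG (32.7% of all promoters held at least 1), while the Krt8 and Krt18 windows held none. Vim held 1 TATAAA match, 32 bases before the start (12.4% of all promoters held one), and TGANTCA (6.75% of all) was found in none of these 4. The table gave promoters for 8 of the 18 genes. These matches describe letters in a window and show no binding.

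**Figure D1:**
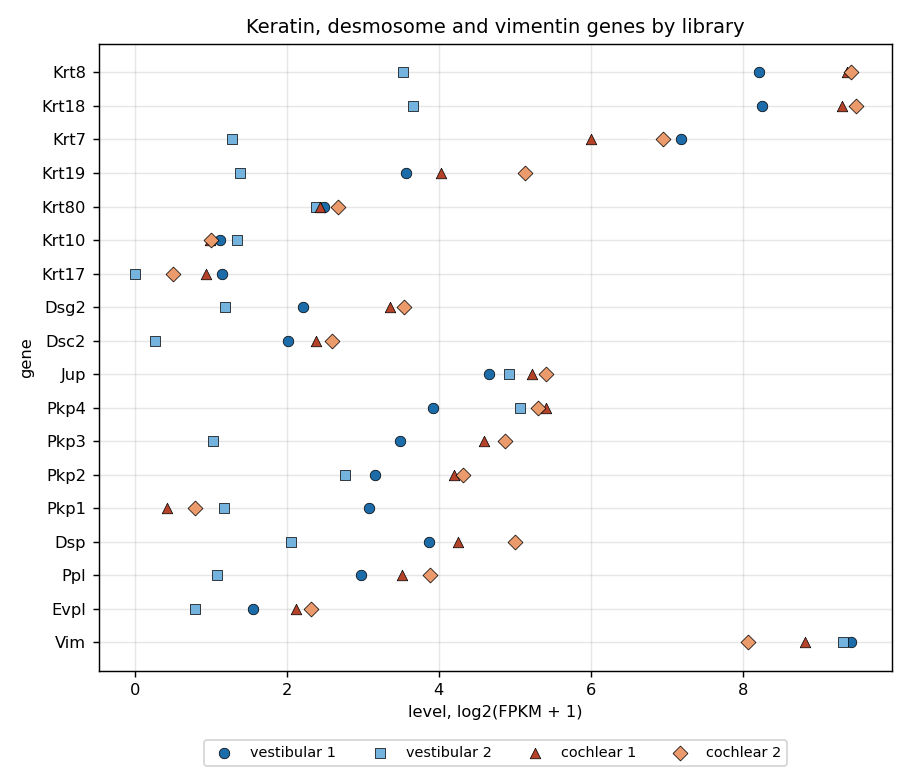
Level of each of the 18 genes above 1 FPKM in any library, as log2(FPKM + 1) on the horizontal axis, with 1 symbol per library. For Krt8, Krt18 and Krt7 the vestibular 2 square lies far to the left (10.5, 11.6 and 1.43 FPKM), while Krt80, Krt10 and Jup lie close together in all 4 libraries.

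Krt19, the smallest keratin and a type I chain of simple epithelia, stood at 10.9, 1.62, 15.3 and 33.96 FPKM. It was far below Krt18 in every library, at most 0.139 of its level. Both cochlear values lay above both vestibular values, but the cochlear libraries were themselves 2.22-fold apart. The log2 difference was -2.10 (SE 0.90, limma adjusted p 0.330), with -1.01 on leaving out vestibular 2 and -3.19 on leaving out vestibular 1.

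Krt80, a type II keratin found in many epithelia, hardly varied. It stood at 4.61, 4.21, 4.42 and 5.36 FPKM, with overlapping groups and a log2 difference of -0.12 (SE 0.16, limma adjusted p 0.713). Vestibular 2, so low for Krt8, was within 1.10-fold of vestibular 1 here. Krt80 and Krt7 are neighbours on chromosome 15, with 40881 bp between them, yet their values followed different orders.

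Keratins of stratified epithelium were at low levels or listed at 0. Krt10, the type I chain of the upper layers of epidermis, stood at 1.17, 1.55, 0.980 and 1.01 FPKM (log2 difference 0.24, SE 0.22, limma adjusted p 0.587). Krt17, a type I chain induced by stress and in basal cells of glands and hair follicles, stood at 1.21 and 0.921 FPKM in vestibular 1 and cochlear 1 and at 0.415 in cochlear 2. It was listed at 0 in vestibular 2, its mean over the libraries was under 1 FPKM, and it was not tested. The other 15 genes of this class reached at most 0.272 FPKM (Krt16 in cochlear 1). Krt5, the type II chain of basal cells, was listed at 0 in all 4 libraries, and its partner Krt14 at 0 in 3 and 0.0636 in cochlear 1. None of the 23 hair and other keratins passed 1 FPKM; the highest was Krt83 at 0.753 in cochlear 1, and 17 of the 23 were listed at 0 throughout. The simple or atypical keratins Krt222, Krt20 and Krt23 also stayed below 1 FPKM, at most 0.782, 0.730 and 0.707.

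The type I and type II keratins balanced each other in summed level, as the plot of sums shows. Type I genes summed to 320, 16.4, 646 and 756 FPKM, and type II genes to 447, 16.1, 732 and 815. Their ratio, type II over type I, was 1.40 in vestibular 1, where Krt7 was highest, and 0.985, 1.13 and 1.08 in the other 3 libraries. Desmosome genes summed to 93.1, 76.5, 165 and 193 FPKM, a far narrower range. The keratin sum was 8.23, 8.37 and 8.14 times the desmosome sum in vestibular 1, cochlear 1 and cochlear 2, and 0.425 times in vestibular 2. In vestibular 2, then, the desmosome sum lay above the keratin sum. Jup and Pkp4, found at adherens junctions as well, made up 80.9% of the desmosome sum there.

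**Figure D2:**
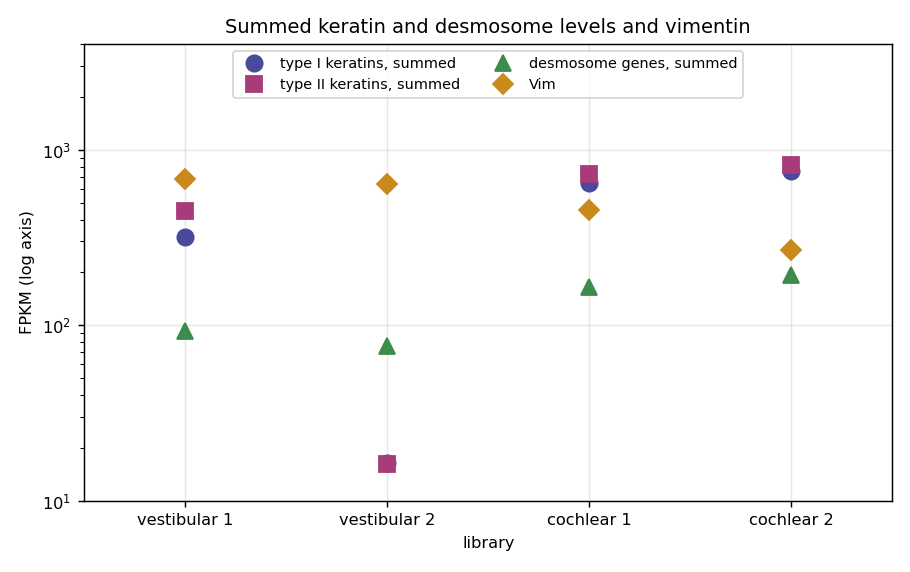
FPKM on a log axis for each library: summed type I keratins (circles), summed type II keratins (squares), summed desmosome genes (triangles) and Vim (diamonds). The keratin sums nearly coincide in vestibular 2 (16.4 and 16.1), where Vim stood at 638.

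The keratins detected above 1 FPKM on chromosome 15 sit at the edges of a gene cluster. On chromosome 15 the annotation places 21 protein-coding keratin genes of this set between 101347444 and 102032027 of mm10. Krt80 and Krt7 are numbers 1 and 2 in that row, and Krt8 and Krt18 are numbers 20 and 21. Between them lie the other 17 of these 21 genes, 11 of them listed at 0 in all libraries and the highest, Krt83, at 0.753 FPKM in cochlear 1. The row is not every keratin gene of the region. Krt74, annotated as a pseudogene, and Krt85 were not placed in it, and Krt87, next to Krt7, is not in the set. Krt18 is the only type I gene among the 21 and begins 23698 bp from Krt8. On chromosome 11, which holds 25 type I genes of the set, the 3 detected ones (Krt10, Krt19 and Krt17) are numbers 7, 20 and 24. Krt8 spans chr15:101996698-102004482 on the minus strand and overlaps the noncoding gene Gm36026 of the other strand. Krt18 spans chr15:102028180-102032027 on the plus strand and overlaps no annotated gene. Krt7 and Krt80 also overlap antisense genes (Gm671 and Gm35853), and a processed pseudogene of Krt8 lies on chromosome 7, so fragments could be shared if the counting did not separate them.

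Of the desmosomal cadherins, the widely used pair Dsg2 and Dsc2 passed 1 FPKM in some library and the other 7 genes did not. Dsg2, the desmoglein of simple epithelia and heart, stood at 3.62, 1.28, 9.28 and 10.65 FPKM, and both cochlear values were above both vestibular values. Its log2 difference was -1.75 (SE 0.40), with an unadjusted limma p of 0.0142 and an adjusted p of 0.194. Dsc2, the desmocollin that accompanies it, stood at 3.06, 0.201, 4.21 and 5.06 FPKM (log2 difference -1.35, SE 0.67, limma adjusted p 0.376). Its difference was -0.47 without vestibular 2 and -2.23 without vestibular 1. Dsc2 was 15.2-fold lower in vestibular 2 than in vestibular 1, and Dsg2 2.83-fold. The ratio of Dsg2 to Dsc2 was 1.18, 6.35, 2.203 and 2.11. Dsg3, a desmoglein of basal epidermis and mucosa, reached 0.615 FPKM in cochlear 1. Dsc1 and Dsc3 reached at most 0.0189 and 0.0181 FPKM, and Dsg1a, Dsg1b, Dsg1c and Dsg4 were listed at 0. All 9 cadherin genes lie together on chromosome 18.

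The armadillo proteins of the plaque divided into some that were low in vestibular 2 and some that were not. Jup (plakoglobin), which also serves adherens junctions, stood at 24.3, 29.4, 36.5 and 41.4 FPKM. Its vestibular libraries were close together, vestibular 2 was the higher of them, and both lay below the cochlear libraries (log2 difference -0.52, SE 0.15, unadjusted limma p 0.0279, adjusted p 0.232). Pkp4, also called p0071 and found at adherens junctions as well as desmosomes, stood at 14.1, 32.5, 41.5 and 38.6 FPKM. Here vestibular 1 was the library that stood apart, and the log2 difference of -0.87 (SE 0.43, limma adjusted p 0.378) was -0.29 without it and -1.44 without vestibular 2. Pkp3, a plakophilin of simple and stratified epithelia, stood at 10.2, 1.04, 23.1 and 28.4 FPKM. Vestibular 2 was thus 9.86-fold below vestibular 1, and the log2 difference of -2.48 (SE 0.92) had a limma adjusted p of 0.286. It was -1.24 without vestibular 2 and -3.71 without vestibular 1.

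Pkp2, the plakophilin of simple epithelia and heart, gave the smallest p among these genes. It stood at 7.96, 5.83, 17.4 and 18.9 FPKM, so each group was tight and the cochlear mean was 2.63 times the vestibular mean. The log2 difference was -1.29 (SE 0.18), with an unadjusted limma p of 0.00281 and an adjusted p of 0.123, above the threshold of 0.05. Its difference kept its direction and lay between -1.49 and -1.09 when any single library was left out. Pkp1, the plakophilin of stratified epithelium, went the other way, at 7.47, 1.25, 0.345 and 0.738 FPKM. Both vestibular values were above both cochlear values, and most of the vestibular level was in library 1 (log2 difference 1.51, SE 0.74, limma adjusted p 0.369). Without vestibular 2 the difference was 2.47, and without vestibular 1 the mean fell under the filter of 1 FPKM.

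**Figure D3:**
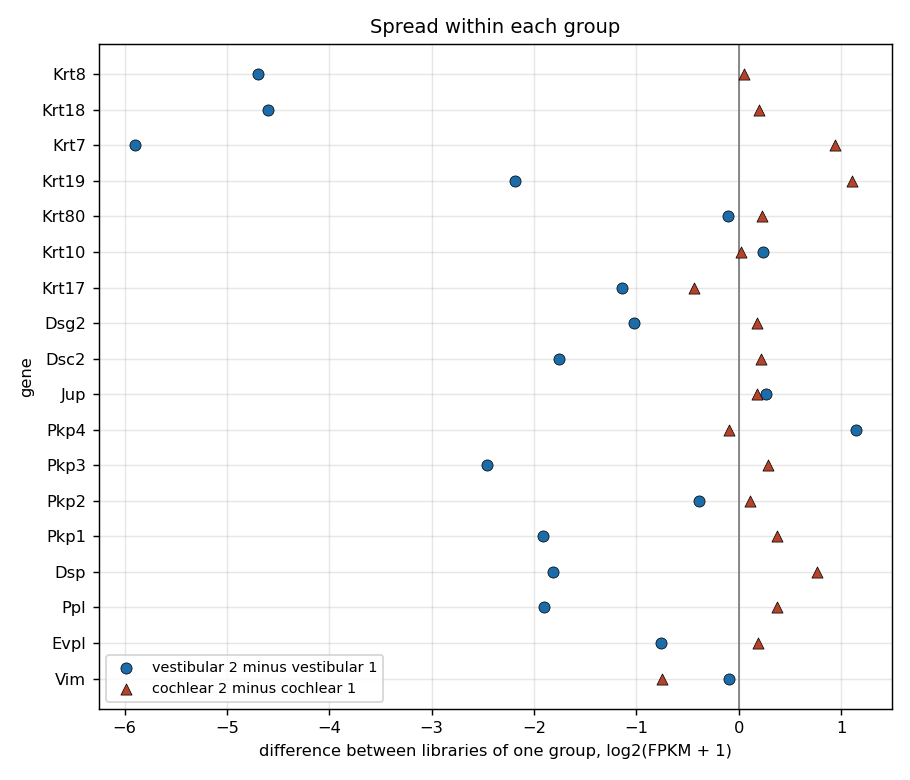
Difference between the 2 libraries of each group for each gene, on the log2(FPKM + 1) scale, with circles for vestibular 2 minus vestibular 1 and triangles for cochlear 2 minus cochlear 1. The circles reach -5.90 (Krt7), -4.70 (Krt8) and -4.60 (Krt18), while the triangles lie between -0.75 (Vim) and 1.10 (Krt19).

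The plakins, which connect the plaque to the filaments, followed the order of Krt8, Krt18 and Krt19 over a smaller range. Dsp (desmoplakin) stood at 13.6, 3.14, 17.998 and 31.2 FPKM. Ppl (periplakin) stood at 6.90, 1.12, 10.4 and 13.8, and Evpl (envoplakin), its partner in the cornified envelope, at 1.93, 0.730, 3.35 and 3.98. In all 3 genes vestibular 2 was lowest, vestibular 1 next and cochlear 2 highest. Log2 differences were -1.67 for Dsp (SE 0.73), -1.67 for Ppl (SE 0.72) and -1.05 for Evpl (SE 0.33). The limma adjusted p was 0.335, 0.331 and 0.252. Without vestibular 2 the differences were -0.76, -0.72 and -0.67, and without vestibular 1 they were -2.58, -2.62 and -1.43. Relative to Krt8, Dsp stood at 0.0458, 0.0271 and 0.0454 in vestibular 1, cochlear 1 and cochlear 2, and at 0.299 in vestibular 2.

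The makeup of the summed desmosome level therefore differed in vestibular 2. Jup and Pkp4 together made up 80.9% of it there, against 41.2%, 47.3% and 41.5% in vestibular 1, cochlear 1 and cochlear 2. Dsp made up 4.10% in vestibular 2 and between 10.9% and 16.2% in the other 3, and Pkp3 1.36% against 10.98% to 14.7%. Pkp1 was 8.02% of the sum in vestibular 1 and at most 1.64% elsewhere.

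**Figure D4:**
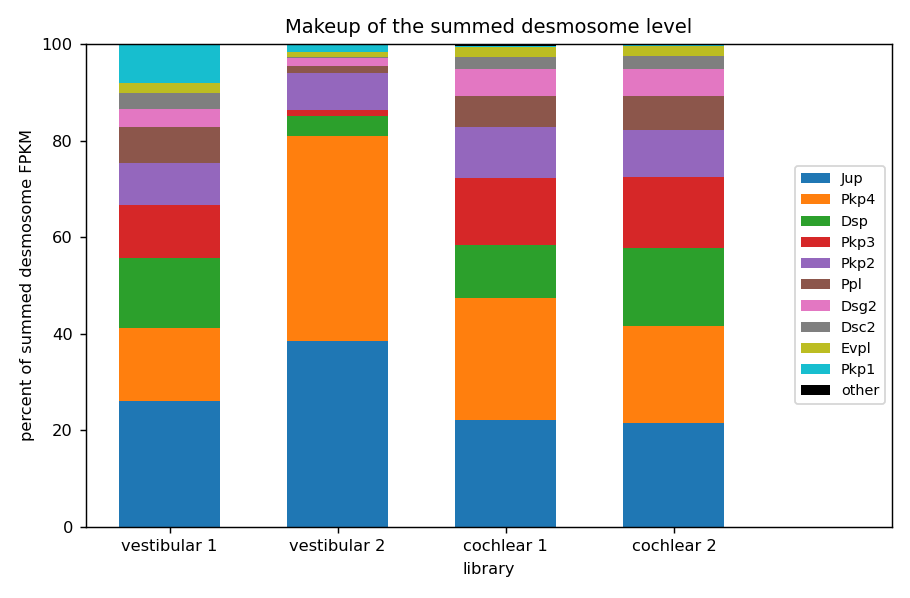
Percent of the summed desmosome FPKM taken by each gene, 1 stacked bar per library. Jup and Pkp4 fill 80.9% of the vestibular 2 bar and 41.2% to 47.3% of the others.

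Vimentin was abundant in all 4 libraries and ran opposite to Krt8, Krt18 and Krt19 between the groups. Vim stood at 683, 638, 450.4 and 267 FPKM, with both vestibular libraries above both cochlear libraries. The vestibular mean was 660 ± 32.2 FPKM and the cochlear mean 359 ± 130 (SD, n = 2 each). The log2 difference was 0.93 (SE 0.30), with an unadjusted limma p of 0.0417 and an adjusted p of 0.258. Relative to Krt8, Vim stood at 2.30, 60.8, 0.679 and 0.389. Without cochlear 2, the library lowest in Vim, the Vim difference was 0.55, against 1.30 without cochlear 1. The macrophage sum (22.5 FPKM) and the fibroblast sum (1368 FPKM) were also lowest in cochlear 2, and their part in the Vim level was not tested. Vim spans chr2:13573927-13582826 on the plus strand.

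Among 15 other intermediate filament genes, 7 were tested and limma called none after adjustment, with 2 at an unadjusted p under 0.05 (18.2% of all genes), Lmna and Lmnb1. Lmna, the nuclear lamin A/C gene, stood at 99.0, 103, 71.1 and 59.0 FPKM (log2 difference 0.63, limma adjusted p 0.186). Lmnb1, the lamin B1 gene, lay the other way, at 4.85, 3.97, 6.97 and 7.46 (log2 difference -0.61, limma adjusted p 0.215). Nes, the nestin gene of progenitor cells, stood at 35.4, 25.9, 23.4 and 20.9. Synm, whose product synemin joins vimentin and desmin filaments, stood at 6.91, 17.6, 4.67 and 3.20. Gfap, the filament of astrocytes and some glia, stood at 12.5 FPKM in vestibular 1 and between 0.216 and 1.17 elsewhere. The muscle filament gene Des reached at most 0.410 FPKM.

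Across the groups, 17 of the 18 genes had a mean of at least 1 FPKM and were tested, and limma called 0 of them at an adjusted p under 0.05. Of all 13200 genes tested it called 4 (0.0303%), all higher in the cochlear libraries. At an unadjusted p under 0.05 there were 5 of these 17 genes, against 18.2% of all genes. Pkp2, Dsg2, Jup and Evpl had lower vestibular levels (10.6% of all genes lay on that side with such a p), and Vim had higher ones (7.61% of all). Leaving out a library moved that count and also the share over all genes, in fits that left a single library in that group. The groups did not overlap in 15 of the 17, against 55.3% of all genes: the cochlear libraries were higher in 12 (28.4% of all) and the vestibular libraries in 3 (26.9%), namely Krt10, Pkp1 and Vim. The median log2 difference was -1.35, against 0.01 over all genes tested. It was -0.72 without vestibular 2 and -2.24 without vestibular 1. Krt10 and Pkp1 passed the filter on low values with a cochlear mean under 1 FPKM. With 2 samples against 2, an exact permutation test cannot go below 0.3333.

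**Figure D5:**
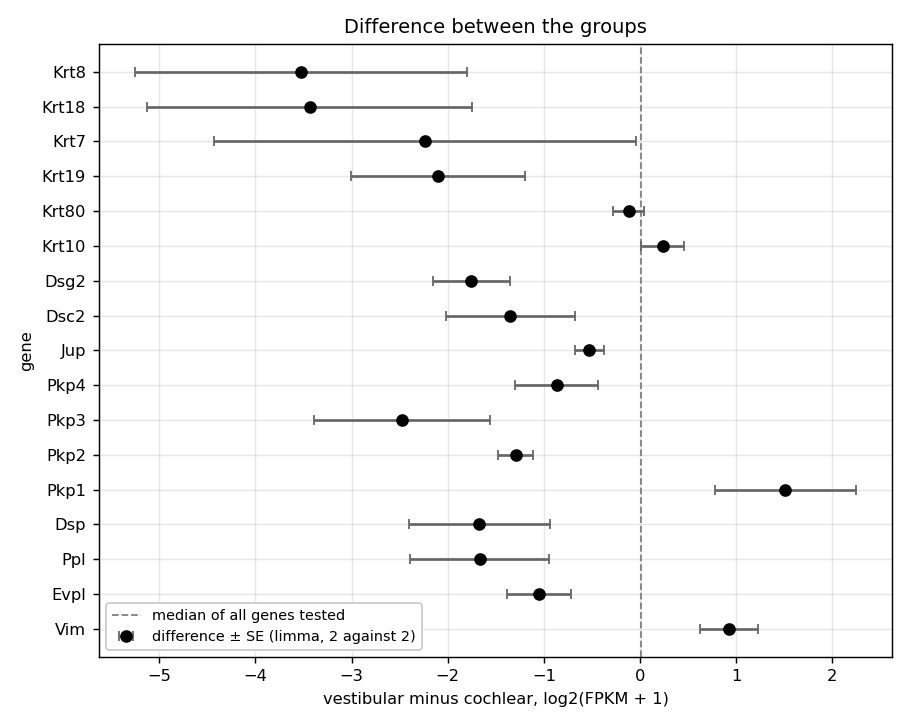
Vestibular minus cochlear difference on the log2(FPKM + 1) scale with its standard error from limma (2 libraries against 2), for the 17 genes tested; the dashed line is the median of all genes tested, 0.01. The error bars are long for Krt8, Krt18 and Krt7 (SE 1.73, 1.69 and 2.195) and short for Pkp2 (SE 0.18).

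Within the groups, the vestibular libraries were further apart than the cochlear ones. Cochlear libraries lay within 2-fold of each other in 15 of the 18 genes, and vestibular libraries in 5 of 18, against 90.6% and 87.7% of all genes tested. Vestibular 2 was the lowest of the 4 libraries in 13 genes (29.8% of all genes tested), and cochlear 2 the highest in 12 (28.8%). The order vestibular 2, vestibular 1, cochlear 1, cochlear 2 from low to high was seen in 10 genes (Krt8, Krt18, Krt19, Dsg2, Dsc2, Pkp2, Pkp3, Dsp, Ppl and Evpl), and in 11.1% of all genes tested. The same order held for the sum of the epithelial list. Of the 8 genes of that list, 7 were over 3-fold higher in vestibular 1 than in vestibular 2. The gap was 15.9-fold for Cldn6 and 11.2-fold for Cldn4, between 5.86-fold and 6.84-fold for Cldn3, Cldn7 and Esrp1, and 3.47-fold and 3.32-fold for Epcam and Grhl2. The exception was E-cadherin (Cdh1), at 32.2, 33.9, 122 and 146 FPKM. Ratios of Krt8 to these genes depend on the gene chosen: relative to Epcam Krt8 stood at 6.02, 0.738, 5.88 and 4.64, and relative to Cldn6 at 3.34, 1.88, 4.95 and 3.17.

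Hemidesmosome genes, which fix keratin filaments to the basement membrane, were split. Of 11 such genes and filament linkers 9 were tested, and limma called none after adjustment, with 3 at an unadjusted p under 0.05, against 18.2% of all genes (Lamb3 and Eppk1 higher in cochlear, Dst higher in vestibular libraries). Lamb3, a laminin chain of epithelial basement membrane, stood at 16.4, 2.11, 56.5 and 65.0 FPKM. Itgb4, the integrin chain of hemidesmosomes, stood at 13.1, 3.59, 16.4 and 19.1. The integrin gene Itga6 of the same list had overlapping groups, at 20.4, 13.3, 23.4 and 12.7. Lama3, a further laminin chain gene, ran from 0.613 to 1.03 FPKM. Plec (plectin) and Macf1, linkers of many cell types, had overlapping groups, as did Cd151. Col17a1, the hemidesmosomal collagen of epidermis, reached at most 0.0361 FPKM.

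Cornified envelope genes gave a mixed picture. Of 11 listed genes 10 were in the files and 4 were tested, with none called by limma and none at an unadjusted p under 0.05. Sprr1a, an envelope precursor gene also induced by stress, stood at 96.1, 1.46, 91.0 and 74.9 FPKM. Ivl (involucrin) stood at 7.93 FPKM in vestibular 1, was listed at 0 in vestibular 2, and reached 1.40 in cochlear 1 and 0.578 in cochlear 2. Cdsn, which encodes the desmosome-associated corneodesmosin, stood at 17.1, 2.94, 5.94 and 6.72 FPKM. Of the 3 genes listed as desmosome-associated (Perp, Pnn and Tmem65) limma called none, and none had an unadjusted p under 0.05. Pnn ran from 23.9 to 27.9 FPKM and Tmem65 from 17.8 to 21.9. Perp, needed for desmosome assembly, stood at 29.1, 5.90, 22.9 and 54.3.

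Regulators of epithelial genes were mostly higher in the cochlear libraries without passing the test. Of 12 listed 9 were tested, limma called 0 after adjustment, and 6 had an unadjusted p under 0.05, all with higher cochlear levels (10.6% of all genes on that side). Elf3, an Ets factor of epithelia, stood at 4.78, 1.80, 9.39 and 23.9 FPKM. Esrp1, the epithelial splicing regulator, stood at 8.66, 1.48, 20.4 and 24.9, and Klf5 at 2.76, 20.1, 5.35 and 6.30. All 6 repressors of epithelial genes were tested and had positive log2 differences. Limma called 0 after adjustment, and Zeb1, Snai2 and Twist1 had an unadjusted p under 0.05 (7.61% of all genes on that side). Zeb1 stood at 11.3, 10.9, 5.85 and 3.62 FPKM, Snai2 at 18.2, 6.48, 3.02 and 3.001, and Twist1 at 18.6, 23.8, 12.4 and 13.7.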

How the data were processed

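The authors deposited FPKM values, 1 per gene symbol and library, per the file headers. The submitters' processing notes name mm10 and Cuffdiff 2.2.1, with TopHat2 2.1.1 as well as SAMtools 0.1.18 and Bowtie2 2.2.8. Settings, annotation and strand use: not given in the sources used here. Libraries came from TRIzol RNA and a stranded mRNA kit, per the labels' protocols. The number of fragments is unknown. The commonest ratios among values under 0.1 FPKM put the value of 1 fragment at up to 1.16-fold apart between libraries (128 of 289 genes for vestibular 1 with cochlear 2). FPKM totals ran from 479380 to 519122. A 0 may be a failed estimate, since the ribosomal gene Rpl26 reads 0 in every library.

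Genes with a mean of at least 1 FPKM (13200) were compared as log2(FPKM + 1) with limma 3.58.1 in R 4.3.3, with a mean-variance trend, 2-sided, Benjamini-Hochberg adjustment and a threshold of 0.05. The prior degrees of freedom were 1.71. This scale understates differences of low genes. Positions came from GENCODE M21, promoters from RefSeq (GRCm38.p6). Every member above 1 FPKM is named, and context lists are described by counts with examples. The members, lists and naming rule were chosen with earlier results of these data known. Alternatives covered the pseudocount, the filter, the trend, scaling, a replicate block and leaving out each library.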

Additional observations from a re-analysis of the deposited data

How the results depend on the processing

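No keratin or desmosome gene passed the threshold under any of the 10 alternatives run. Since limma called few or no genes of any kind in each setting, the lack of called members says little. Of 164 recomputed differences of single genes, 163 kept direction. The filter, the trend and the replicate block change only which genes are tested or the standard error, so direction could not change there. Krt7 reversed to 0.71 without vestibular 2, its differences on leaving out 1 library running from -5.19 to 0.71. Over all genes, limma called 4, and 2 with no filter on low values, 0 with a replicate block and 0 on leaving out any library. With no filter the median difference over the 38 member genes then tested was -0.087, since most of those added were near 0. Leaving out 1 library moved the members at an unadjusted p under 0.05 from 5 to between 1 and 11. Deviations of same-numbered libraries from their group means correlated at 0.04 across genes, so the numbers were not taken to pair the samples. With the replicate block limma called 0 members. An unadjusted limma p under 0.05 was then seen in 4 of 17 members, against 14.3% of all genes. Size factor scaling moved the median of all genes by less than 0.1 on the log2 scale. Where 1 library of a group remained, its variance was taken from the other group. Unknown depth leaves values under 1 FPKM without an interval.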

Other observations

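Keratin-related genes whose symbols fall outside the numbered keratins added little. The lettered keratin Krt6a was listed at 0.0900 FPKM in cochlear 1 and at 0 in the other libraries, and Krt6b, Krt33a and Krt33b were listed at 0 in all 4. Of 53 keratin-associated protein genes (Krtap), which encode matrix proteins of hair, 9 were above 0 in any library and the highest value was 0.222 FPKM. The 2 vestibular values of Krtcap3 were 6.17 and 3.25 FPKM, and the cochlear ones 9.55 and 12.7. Krtcap2, a subunit gene of the oligosaccharyltransferase despite its name, stood between 137 and 158 FPKM in all 4.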
